A study of Mus musculus with 12 samples.

Results

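Nuclear receptors outside the estrogen-related receptor (ERR) family were followed by expression array in mouse embryonic stem (ES) cells of line K3. The members are 41 receptor genes listed by symbol. Each was read from probe sets annotated to exactly 1 symbol, and per gene the probe set with the highest mean over the 12 arrays was kept. This gave 39 of the 41 genes, out of 22180 genes read the same way. Nr1h2 and Nr2e3 were not analysed here. There were 3 groups of 4 arrays. KO/ERRb-wt is the Esrrb knockout transduced with a lentivirus that expresses ERRb, the receptor that Esrrb encodes. KO/mock is the knockout labelled mock, and WT/mock is the line without the knockout, also labelled mock; the labels do not spell out what mock stands for. Each group was 2 clones with 2 arrays per clone: 12-1 and 12-3 for KO/ERRb-wt, 8-3 and 8-4 for KO/mock, and 5-2 and 5-5 for WT/mock. All 3 groups were grown in N2B27 medium with LIF and a pair of inhibitors, CH99021 (against GSK3) and PD0325901 (against MEK), and then had both inhibitors and doxycycline for 3 days. The sources do not say what doxycycline controlled. The comparisons ask which receptor genes differed with the knockout and with the return of ERRb.

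Nuclear receptors are transcription factors that bind DNA through a zinc-finger domain, and most also hold a pocket for a small lipid-soluble ligand such as a steroid, retinoic acid, thyroid hormone or a fatty acid. Many work as heterodimers with a retinoid X receptor, and they recruit corepressors or coactivators to their targets. In mouse ES cells, retinoic acid acting through its receptors drives differentiation, and Nr6a1 (germ cell nuclear factor) represses Pou5f1 as cells differentiate. The hexamer AGGTCA is shared by the binding sites of much of the family, and ERRs bind it with a short extension, as TCAAGGTCA.

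The promoters of 3 receptor genes that changed are shown because they hold the motifs counted here: the family's hexamer in Rarg, and repeated copies of TGACG, the core of the cyclic AMP response element (CRE), in Nr4a1 and Nr4a2. Each is the 250 bases before a transcription start, 5′ to 3′, from RefSeq on GRCm38.p6. Capitals mark AGGTCA or its reverse complement in Rarg, and TGACG or its reverse complement in the others.
Rarg, chr15:102257523-102257772, minus strand: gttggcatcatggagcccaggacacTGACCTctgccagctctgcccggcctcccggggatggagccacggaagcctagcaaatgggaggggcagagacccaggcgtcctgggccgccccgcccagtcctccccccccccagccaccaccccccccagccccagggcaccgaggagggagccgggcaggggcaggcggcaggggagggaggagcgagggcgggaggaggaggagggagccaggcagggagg
Nr4a1, chr15:101266596-101266845, plus strand: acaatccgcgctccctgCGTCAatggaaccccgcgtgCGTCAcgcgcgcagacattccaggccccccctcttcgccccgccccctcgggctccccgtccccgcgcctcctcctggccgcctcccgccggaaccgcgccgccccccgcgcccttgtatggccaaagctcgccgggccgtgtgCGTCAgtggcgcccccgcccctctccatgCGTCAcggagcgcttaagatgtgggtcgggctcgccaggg
Nr4a2, chr2:57124004-57124253, minus strand: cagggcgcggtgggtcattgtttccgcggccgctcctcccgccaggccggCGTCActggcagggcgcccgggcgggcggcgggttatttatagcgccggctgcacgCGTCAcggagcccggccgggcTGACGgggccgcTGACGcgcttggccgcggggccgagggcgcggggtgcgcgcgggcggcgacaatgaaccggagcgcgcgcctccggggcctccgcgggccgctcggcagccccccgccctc

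RefSeq promoters were found for 35 of the 39 genes; Thra, Nr3c1, Hnf4g and Nr5a1 had none in the table. TCAAGGTCA, searched on both strands of the 250 bases, was in 0 of the 35, against 0.422% of 27025 genes. AGGTCA, which the longer element also contains, was in 8 of the 35 (22.9%), against 15.8% of all genes: Rarg, Rxra, Rxrg, Thrb, Pparg, Nr1h4, Nr1d2 and Nr6a1. Of the 7 genes with both a promoter and a changed level, Rarg alone held it, 225 bases before the start on the opposite strand, and its other annotated start held none. TGACG, searched after the values were seen, was in 12 of the 35 genes (34.3%) against 19.8% of all genes. At least 4 copies stood in the promoters of Nr4a1, Nr4a2 and Nr4a3, the whole NR4A family, and in 0.163% of all genes. CACGTG, the E-box bound by clock factors and also searched afterwards, was in 5 of the 35 (14.3%) against 6.86%, and neither Nr1d1 nor Nr1d2 held it in this window. A gene counted if the window of any of its annotated starts held the letters. The shares were not matched for the number of starts or for base content. A match in these letters is a description and not a binding site.

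Values are log2 expression after RMA, so a difference of 1 is a doubling, and levels of different probe sets are not compared with each other. Array medians lay between 5.00 and 5.07. Esrrb itself read 6.50 to 6.99 on the KO/ERRb-wt arrays, 7.41 to 8.00 on the KO/mock arrays and 7.38 to 7.39 on the WT/mock arrays, which goes against the labels. The sources do not give the deleted stretch or the viral insert, so this probe set may check neither, and each direction below is that of arrays labelled so. Of 10 ES cell markers 9 had a mean of 6 or more; Dppa5a was at 4.95. Their mean was 9.86 to 9.91 on the KO/ERRb-wt arrays, 9.97 to 10.00 on the KO/mock arrays and 10.02 to 10.09 on the WT/mock arrays, ranges that do not overlap. Called lower were 1 of the 10 in KO/mock against WT/mock (3.47% of all genes) and 4 in KO/ERRb-wt against KO/mock (3.17%). In KO/ERRb-wt against WT/mock it was 4 (12.0%), with 0 higher in any comparison. Of the 9761 genes with a mean of 6 or more, 648, 637 and 2241 were called lower in that order. The part of the marker shift in the receptor results was not tested. None of 10 feeder fibroblast markers reached 6. Differences were tested with limma over all 41345 probe sets, with clone as a random block, and a gene was called at a Benjamini-Hochberg adjusted p under 0.05. Each group held only 2 clones. The clone correlation was 0.0286, so the fit counted the 4 arrays of a group as nearly independent. Its p-values therefore do not take the clone as the unit. With the 2 arrays of each clone averaged, 9 of the 10 calls of receptor genes given below ended. Other differences between clones cannot be told apart from the group. In bulk samples, fewer cells that express a gene and less RNA per cell cannot be told apart either.

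**Figure D1:**
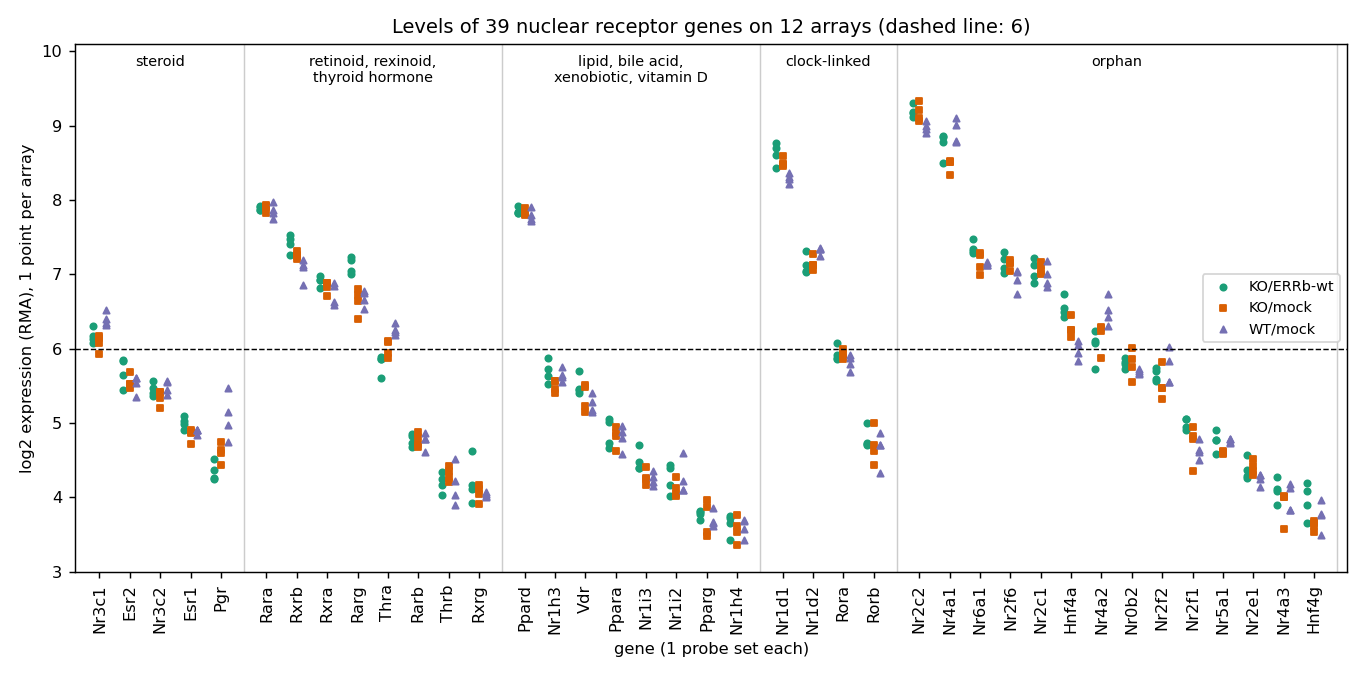
Log2 expression of 39 nuclear receptor genes, 1 point per array, with genes grouped by role; colours mark the 3 groups and the dashed line the level of 6. The line parts 16 genes from 23, and in most genes the 3 groups lie close together.

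Of the 39 receptor genes, 16 (41.0%) had a mean of 6 or more over the 12 arrays, against 44.0% of all 22180 genes. By role these were 5 of 8 retinoid, rexinoid and thyroid hormone receptors (Rara, Rarg, Rxra, Rxrb and Thra), 2 of 4 clock-linked receptors (Nr1d1 and Nr1d2) and 7 of 14 orphan receptors (Nr2c1, Nr2c2, Nr2f6, Nr4a1, Nr4a2, Nr6a1 and Hnf4a). Only Ppard among 8 receptors of lipids, bile acids, xenobiotics and vitamin D, and only Nr3c1 among 5 steroid receptors, reached that level. The means nearest the line were Thra at 6.02, Nr3c1 at 6.21 and Nr4a2 at 6.23 above it, and Rora at 5.89, Nr0b2 at 5.76 and Nr2f2 at 5.64 below it. The other 23 genes had means of 3.60 to 5.89. They include the sex steroid receptors Esr1, Esr2 and Pgr, the mineralocorticoid receptor Nr3c2, and Rarb, Rxrg and Thrb. They also include the fatty acid receptors Ppara and Pparg, the oxysterol receptor Nr1h3, the bile acid receptor Nr1h4, the xenobiotic receptors Nr1i2 and Nr1i3, and the vitamin D receptor Vdr. The rest are Rora, Rorb, Nr2e1, Nr2f1, Nr2f2, Nr4a3, Nr5a1, Nr0b2 and Hnf4g. No detection call was used, so a low value is not shown to be absence.

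Few receptor genes changed, and about as often as genes at large. On the KO/mock arrays against WT/mock, 2 of 39 were called (5.13%), against 5.58% of all genes: 0 were higher, against 2.11%, and 2 lower, against 3.47%. Of those with a mean of 6 or more it was 2 of 16 (12.5%), against 10.8%. On the KO/ERRb-wt arrays, 1 of 39 was called against KO/mock (2.56%), beside 4.4% of all genes: 1 was higher, beside 1.24%, and 0 lower, beside 3.17%. At a mean of 6 or more it was 1 of 16 (6.25%), beside 8.3%. Set against WT/mock, the KO/ERRb-wt arrays gave 7 of 39 (17.9%), where all genes gave 20.8%: 4 were higher, where all genes gave 8.82%, and 3 lower, where all genes gave 12.0%. At a mean of 6 or more it was 6 of 16 (37.5%), where all genes gave 37.8%. That level was taken over all 12 arrays, so a group with high values can carry a gene past it. Hnf4a, among the 6, averaged 5.98 on the WT/mock arrays and 6.55 on the KO/ERRb-wt arrays. Thra, also among them, averaged 6.25 and 5.80. Over the WT/mock arrays alone, 15 receptor genes reached 6.

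The arrays of the groups did not overlap for 10 of the 39 in KO/mock against WT/mock (15.9% of all genes), for 3 in KO/ERRb-wt against KO/mock (17.0%) and for 13 in KO/ERRb-wt against WT/mock (28.5%). An unadjusted p under 0.05 was met by 12, 11 and 15 of the 39 in that order of comparisons, beside 20.3%, 21.7% and 34.3% of all genes. The median log2 difference of the 39 was 0.016, 0.097 and 0.097, beside 0.004, 0.017 and 0.031 over all genes. In all, 9 receptor genes were called in at least 1 comparison, and 8 of the 16 with a mean of 6 or more in none. The comparisons share arrays, so they are not independent of each other.

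**Figure D2:**
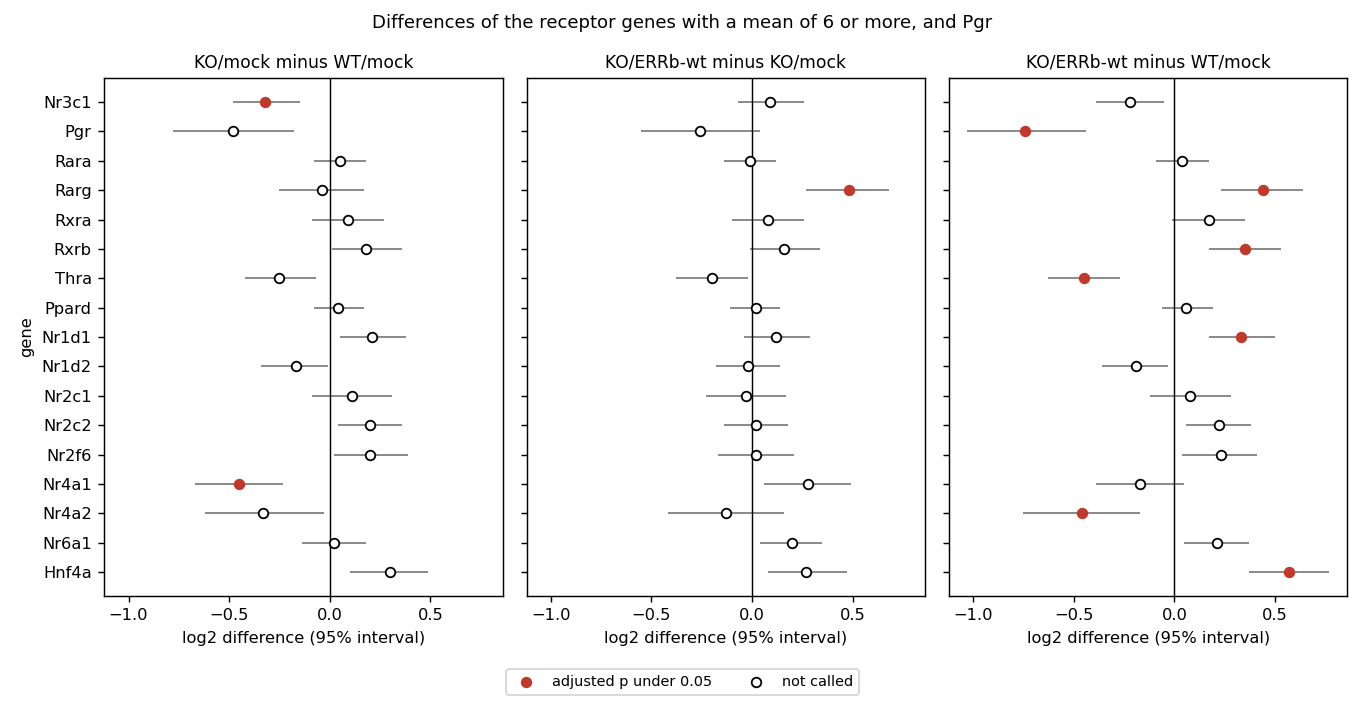
Log2 differences of the receptor genes with a mean of 6 or more, and of Pgr, in the 3 comparisons, with 95% intervals that are not adjusted for the number of genes; filled points were called. Rarg lies to the right of 0 in both comparisons of the KO/ERRb-wt arrays.

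Among the retinoic acid receptors, which switch their targets on when retinoic acid binds, Rarg rose on the KO/ERRb-wt arrays and Rara did not pass the test in any comparison. Rarg read 7.05, 7.00, 7.19 and 7.23 on the KO/ERRb-wt arrays, 6.64, 6.40, 6.80 and 6.72 on the KO/mock arrays and 6.66, 6.54, 6.78 and 6.75 on the WT/mock arrays. All 4 KO/ERRb-wt arrays lay above the other 8, and the KO/mock and WT/mock arrays overlapped. The log2 difference was 0.48 ± 0.09 (SE) from KO/mock (adjusted p = 0.0213), 1.39-fold, and 0.44 ± 0.09 from WT/mock (adjusted p = 0.00818). Of the 10 ES cell markers, Nanog, Klf4, Tfcp2l1 and Utf1 fell in both of these comparisons, and no other was called. The median difference of the 10 was -0.01 from KO/mock and -0.1 from WT/mock. A link of these markers to Rarg was not tested. For Rarg, KO/mock minus WT/mock was -0.04 (95% interval -0.25 to 0.17). The call against KO/mock ended without KO/mock clone 8-3 replicate 1 (adjusted p = 0.0555) and without replicate 1 or 2 of KO/ERRb-wt clone 12-3 (adjusted p = 0.0554 and 0.0626), with only the 2 groups compared (0.0512), and without clone 8-3 or 12-3 (adjusted p = 0.147 and 0.165). The call against WT/mock held without any single array and ended without clone 5-2 or 12-3 (adjusted p = 0.0939 and 0.0917).

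Rara averaged 7.89 ± 0.02 on the KO/ERRb-wt arrays, 7.90 ± 0.05 on the KO/mock arrays and 7.85 ± 0.09 on the WT/mock arrays (SD, n = 4 each). Its log2 differences were 0.05 (95% interval -0.08 to 0.18) between KO/mock and WT/mock, -0.01 (-0.14 to 0.12) between KO/ERRb-wt and KO/mock, and 0.04 (-0.09 to 0.17) between KO/ERRb-wt and WT/mock. These unadjusted intervals do not reach the difference seen for Rarg. Rarb, a gene that retinoic acid itself induces in many cells, is given with its chromosome below.

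Rxrb, a partner of many of these receptors, rose on the KO/ERRb-wt arrays relative to WT/mock. It read 7.26, 7.41, 7.53 and 7.47 on the KO/ERRb-wt arrays, 7.25, 7.21, 7.26 and 7.31 on the KO/mock arrays and 7.12, 6.86, 7.20 and 7.10 on the WT/mock arrays. Every knockout-labelled array lay above every WT/mock array. The log2 difference from WT/mock was 0.35 ± 0.08 (SE; adjusted p = 0.0122) on the KO/ERRb-wt arrays and 0.18 ± 0.08 (adjusted p = 0.285) on the KO/mock arrays. Between KO/ERRb-wt and KO/mock it was 0.16 ± 0.08 (adjusted p = 0.306). The call ended without clone 5-2 or 12-3 (adjusted p = 0.0805 and 0.115). Rxra, its close relative, averaged 6.91 ± 0.07 on the KO/ERRb-wt arrays, 6.83 ± 0.09 on the KO/mock arrays and 6.74 ± 0.15 on the WT/mock arrays (SD, n = 4 each), with differences of 0.09 for KO/mock minus WT/mock, 0.08 between KO/ERRb-wt and KO/mock and 0.17 between KO/ERRb-wt and WT/mock, none called.

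Thra, which encodes the broadly expressed thyroid hormone receptor, fell on the KO/ERRb-wt arrays relative to WT/mock. It read 5.86, 5.60, 5.86 and 5.89 on the KO/ERRb-wt arrays, 6.09, 6.11, 5.94 and 5.88 on the KO/mock arrays and 6.35, 6.22, 6.18 and 6.25 on the WT/mock arrays. The WT/mock arrays stood above all 8 others, and the KO/ERRb-wt and KO/mock arrays overlapped. Thra fell by 0.45 ± 0.08 (SE) on the KO/ERRb-wt arrays against WT/mock (adjusted p = 0.00304), and the call held without any single array or clone. With the arrays of each clone averaged, the call ended (adjusted p = 0.0616). KO/mock minus WT/mock was -0.25 ± 0.08 (adjusted p = 0.141), and KO/ERRb-wt differed from KO/mock by -0.20 ± 0.08 (adjusted p = 0.208).

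**Figure D3:**
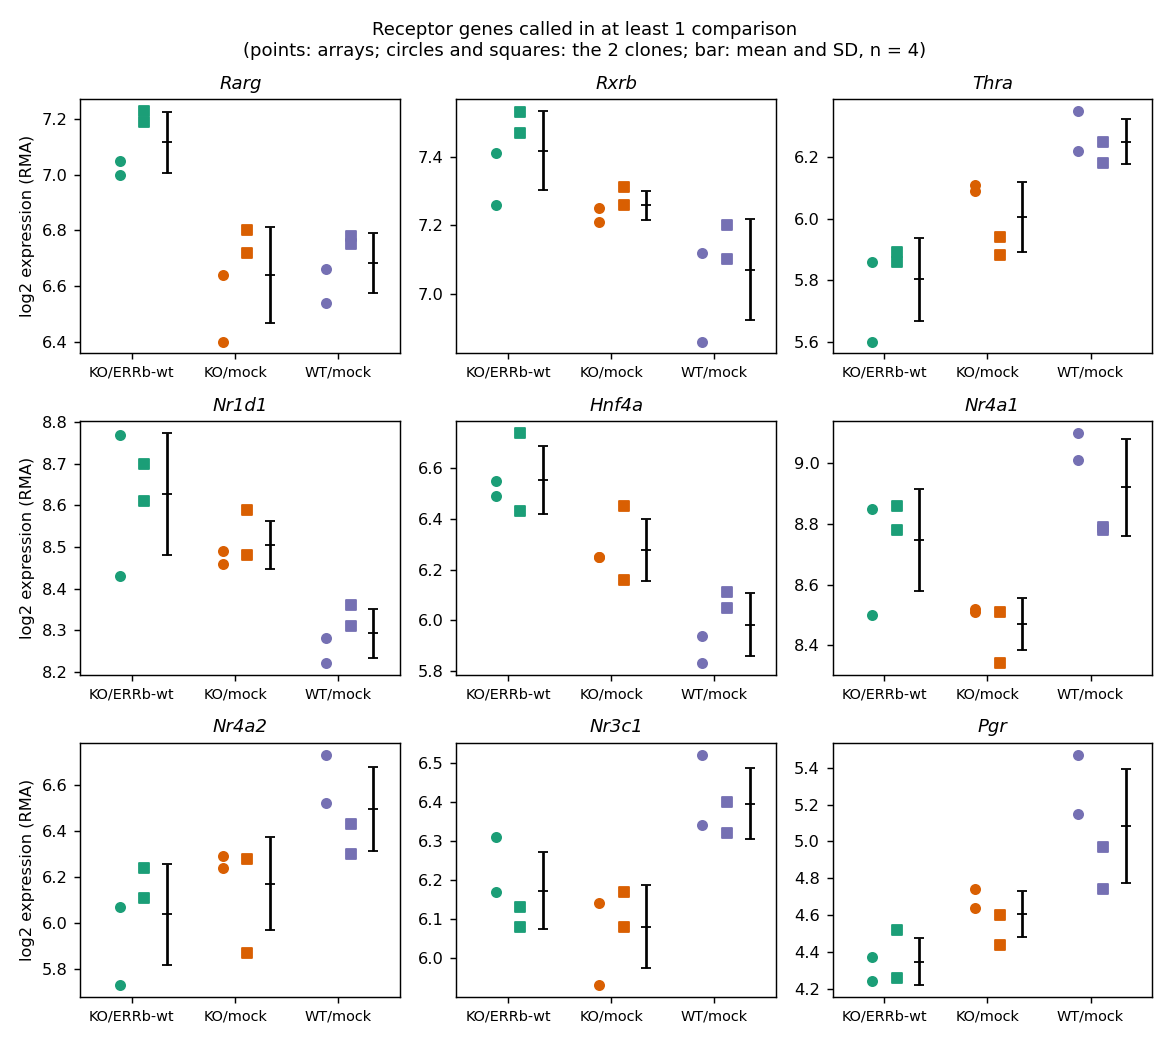
Log2 expression of the 9 receptor genes called in at least 1 comparison, 1 point per array, with marker shapes for the 2 clones of a group and bars for the mean and SD (n = 4). The KO/ERRb-wt points of Rarg lie above those of both other groups, and the WT/mock points of Thra above both knockout-labelled groups.

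Nr1d1 (REV-ERB alpha), a heme-binding repressor of the circadian clock, lies on chromosome 11 with its end overlapping that of Thra in the RefSeq annotation of GRCm38.p6. Whether both probe sets avoid the shared stretch is not known from the sources. Nr1d1 read 8.77, 8.43, 8.70 and 8.61 on the KO/ERRb-wt arrays, 8.49, 8.46, 8.59 and 8.48 on the KO/mock arrays and 8.22, 8.28, 8.36 and 8.31 on the WT/mock arrays. All 8 knockout-labelled arrays lay above the 4 WT/mock arrays. Nr1d1 rose by 0.33 ± 0.08 (SE) on the KO/ERRb-wt arrays against WT/mock (adjusted p = 0.011), and this ended without clone 5-2 or 12-3 (adjusted p = 0.0979 and 0.0778). KO/mock minus WT/mock was 0.21 ± 0.08 (adjusted p = 0.173), and KO/ERRb-wt differed from KO/mock by 0.12 ± 0.08 (adjusted p = 0.425). Rora and Rorb, activators that compete for the same sites, had means under 6 and were not called.

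Rarb, Thrb and Nr1d2 lie together on chromosome 14, with 0 protein-coding genes between Rarb and Thrb and 1 between Thrb and Nr1d2 in the same annotation. The whole chromosome was shifted: over its 343 genes with a mean of 6 or more, the median difference relative to 9405 genes elsewhere was -0.47 for KO/ERRb-wt minus WT/mock, -0.43 for KO/mock minus WT/mock and -0.02 between KO/ERRb-wt and KO/mock. None of the called receptor genes lies there. Nr1d2, the paralogue of Nr1d1, read 7.12, 7.03, 7.05 and 7.31 on the KO/ERRb-wt arrays, 7.12, 7.06, 7.13 and 7.28 on the KO/mock arrays and 7.34, 7.35, 7.34 and 7.25 on the WT/mock arrays. The groups overlapped. Its log2 difference from WT/mock was -0.19 ± 0.07 (SE; adjusted p = 0.106) on the KO/ERRb-wt arrays and -0.17 ± 0.07 (adjusted p = 0.27) on the KO/mock arrays, and KO/ERRb-wt differed from KO/mock by -0.02. Without KO/ERRb-wt clone 12-3 replicate 2 the first was -0.26 and called (adjusted p = 0.0299).

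Around Nr1d2, the nearest 10 protein-coding genes with a mean of 6 or more had a median of -0.55 for KO/ERRb-wt minus WT/mock, with 9 called lower, and -0.43 for KO/mock minus WT/mock, with 8 called lower. The Nr1d2 differences were nearer 0 than both medians; that gap was not tested. Rarb read 4.85, 4.73, 4.82 and 4.68 on the KO/ERRb-wt arrays, 4.68, 4.88, 4.72 and 4.81 on the KO/mock arrays and 4.79, 4.86, 4.61 and 4.78 on the WT/mock arrays. Thrb read 4.25, 4.03, 4.16 and 4.34 on the KO/ERRb-wt arrays, 4.42, 4.20, 4.28 and 4.35 on the KO/mock arrays and 4.22, 3.89, 4.03 and 4.51 on the WT/mock arrays. The groups overlapped for both genes, and neither was called in any comparison. The part of the chromosome-wide shift in the values of these 3 genes was not tested.

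**Figure D4:**
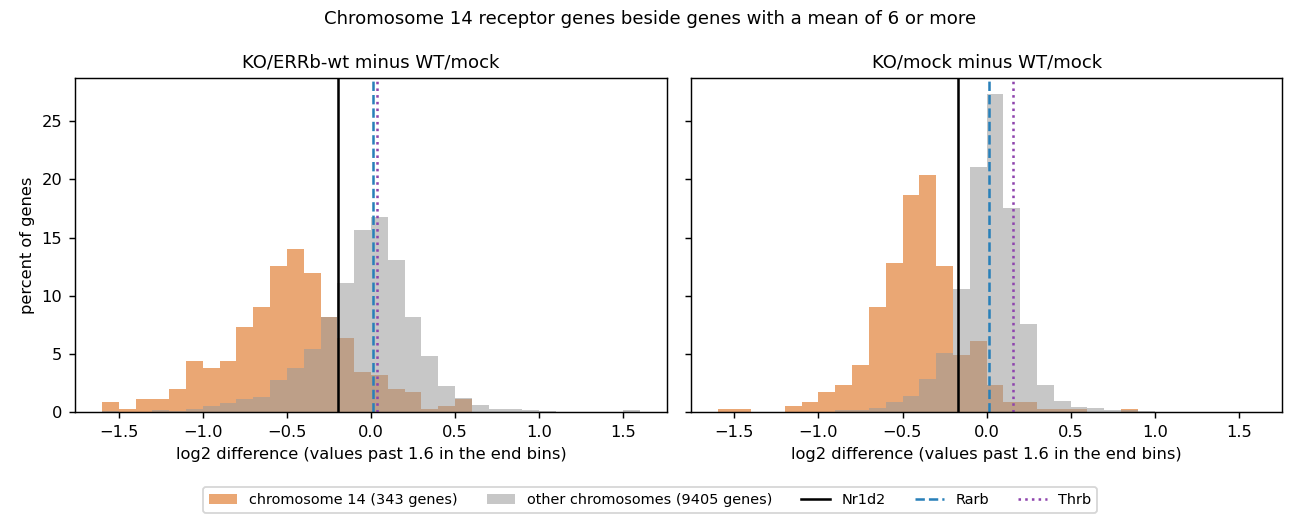
Distribution of log2 differences from WT/mock over genes with a mean of 6 or more, for chromosome 14 and for the other chromosomes, with lines at Nr1d2, Rarb and Thrb. Chromosome 14 is shifted to the left, and the 3 receptor genes lie to the right of its median. Rarb and Thrb have means of 4.77 and 4.23, under the level of the genes in the distributions, so only Nr1d2 can be set beside them.

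Receptors of fatty acids, oxysterols, bile acids, xenobiotics and vitamin D gave 0 calls of 8 in each comparison (limma). Of all genes, 5.58% were called in KO/mock against WT/mock, 4.4% in KO/ERRb-wt against KO/mock and 20.8% in KO/ERRb-wt against WT/mock. An unadjusted p under 0.05 was met by 0 of the 8 in KO/mock against WT/mock and by 2 in each comparison of the KO/ERRb-wt arrays. In the same order, 20.3%, 21.7% and 34.3% of all genes met it. Only Ppard of the 8 had a mean of 6 or more. Ppard, a widely expressed regulator of fatty acid oxidation, averaged 7.85 ± 0.05 on the KO/ERRb-wt arrays, 7.83 ± 0.04 on the KO/mock arrays and 7.79 ± 0.08 on the WT/mock arrays (SD, n = 4 each). Its log2 differences were 0.04 (95% interval -0.08 to 0.17) between KO/mock and WT/mock, 0.02 (-0.11 to 0.14) between KO/ERRb-wt and KO/mock, and 0.06 (-0.06 to 0.19) between KO/ERRb-wt and WT/mock.

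Among the orphan receptors, Nr4a1 fell on the KO/mock arrays and Nr4a2 on the KO/ERRb-wt arrays, both relative to WT/mock. These are immediate-early genes, induced quickly by growth factors, cyclic AMP and stress. Nr4a1 read 8.85, 8.50, 8.78 and 8.86 on the KO/ERRb-wt arrays, 8.52, 8.51, 8.51 and 8.34 on the KO/mock arrays and 9.10, 9.01, 8.79 and 8.78 on the WT/mock arrays. The KO/mock arrays lay below all WT/mock arrays, and the KO/ERRb-wt arrays overlapped both groups. Nr4a1 fell by 0.45 ± 0.10 (SE) on the KO/mock arrays against WT/mock (adjusted p = 0.0286). The KO/ERRb-wt arrays differed by 0.28 ± 0.10 from KO/mock (adjusted p = 0.164) and by -0.17 ± 0.10 from WT/mock (adjusted p = 0.295). The call ended without replicate 1 or 2 of WT/mock clone 5-2 (adjusted p = 0.0955 and 0.0847), replicate 1 of KO/mock clone 8-3 (0.0562), or replicate 1 or 2 of KO/mock clone 8-4 (0.0618 and 0.0878). It also ended without clone 5-2, 8-3 or 8-4 (adjusted p = 0.261, 0.077 and 0.208).

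Nr4a2 (NURR1) read 6.07, 5.73, 6.24 and 6.11 on the KO/ERRb-wt arrays, 6.24, 6.29, 5.87 and 6.28 on the KO/mock arrays and 6.73, 6.52, 6.43 and 6.30 on the WT/mock arrays. The lowest WT/mock array lay just above the highest of the 8 others. Nr4a2 fell by 0.46 ± 0.13 (SE) on the KO/ERRb-wt arrays against WT/mock (adjusted p = 0.0376; adjusted p = 0.0521 with the replicate number as a block). KO/mock minus WT/mock was -0.33 ± 0.13 (adjusted p = 0.244), and KO/ERRb-wt differed from KO/mock by -0.13. The call ended without replicate 1 or 2 of WT/mock clone 5-2 (adjusted p = 0.107 and 0.0827), replicate 1 of WT/mock clone 5-5 (0.059), replicate 1 or 2 of KO/ERRb-wt clone 12-1 (0.0617 and 0.0836) or replicate 2 of KO/ERRb-wt clone 12-3 (0.0634). It also ended without clone 5-2 or 12-1 (adjusted p = 0.251 and 0.181) and with quantile normalization (adjusted p = 0.0637). Nr4a3, the remaining member of the family, had a mean of 3.99 and was not called.

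Hnf4a, a regulator of liver, gut and visceral endoderm genes, rose on the KO/ERRb-wt arrays relative to WT/mock. It read 6.55, 6.49, 6.74 and 6.43 on the KO/ERRb-wt arrays, 6.25, 6.25, 6.45 and 6.16 on the KO/mock arrays and 5.94, 5.83, 6.05 and 6.11 on the WT/mock arrays. All 8 knockout-labelled arrays exceeded the 4 WT/mock arrays, and the KO/ERRb-wt and KO/mock arrays overlapped slightly. Hnf4a rose by 0.57 ± 0.09 (SE; adjusted p = 0.00127), 1.49-fold, and the call held without any single array (adjusted p up to 0.00608) or clone (up to 0.0221). KO/mock minus WT/mock was 0.30 ± 0.09 (adjusted p = 0.104), and KO/ERRb-wt differed from KO/mock by 0.27 ± 0.09 (adjusted p = 0.128). When each clone counted as 1 averaged value, Hnf4a was the only receptor gene called.

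Hnf4a is also a gene of the visceral endoderm, and the mean over 12 primitive endoderm markers was 6.04 to 6.10 on the KO/ERRb-wt arrays, 5.98 to 6.09 on the KO/mock arrays and 5.87 to 6.00 on the WT/mock arrays. Of the 12, 6 had a mean of 6 or more. On the KO/ERRb-wt arrays against WT/mock, Lamb1, a basement membrane laminin gene, rose by 1.14 ± 0.09 and Cubn, an endocytic receptor gene, by 0.31 ± 0.08, and the transcription factor gene Gata4, on chromosome 14, fell by 0.56 ± 0.10. The other 9 were not called there. In KO/mock against WT/mock 3 of the 12 were called (Lamb1 and Lama1 higher, Gata4 lower), and in KO/ERRb-wt against KO/mock 4 (Sparc and Dab2 higher, Lama1 and Sox7 lower). Over all genes 5.58% and 4.4% were called in these comparisons, and 20.8% in KO/ERRb-wt against WT/mock. Of the transcription factor genes, Gata4 had a mean of 6.65, Foxa2 6.07, Sox7 5.68, Sox17 4.92 and Gata6 4.49, and the receptor gene Pdgfra 4.39; Foxa2, Sox17, Gata6 and Pdgfra were not called in any comparison. The part of such cells in the Hnf4a difference was not tested.

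The remaining orphan receptors with a mean of 6 or more were not called. Nr6a1 averaged 7.35 ± 0.08 on the KO/ERRb-wt arrays, 7.16 ± 0.14 on the KO/mock arrays and 7.14 ± 0.02 on the WT/mock arrays (SD, n = 4 each). It differed by 0.20 between KO/ERRb-wt and KO/mock (adjusted p = 0.177), by 0.21 between KO/ERRb-wt and WT/mock (adjusted p = 0.0744) and by 0.02 for KO/mock minus WT/mock. The KO/ERRb-wt arrays did not overlap those of either other group. Nr2c2 (TR4), which binds direct repeats of the hexamer, averaged 9.20 ± 0.08 on the KO/ERRb-wt arrays, 9.18 ± 0.12 on the KO/mock arrays and 8.97 ± 0.07 on the WT/mock arrays (SD, n = 4 each). It differed by 0.22 between KO/ERRb-wt and WT/mock (adjusted p = 0.0601), 0.20 between KO/mock and WT/mock (adjusted p = 0.177) and 0.02 between KO/ERRb-wt and KO/mock. No knockout-labelled array of Nr2c2 lay below a WT/mock array.

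For KO/ERRb-wt against WT/mock both Nr2c2 and Nr6a1 lay close to the threshold and were called under several alternatives. Among members under 6, Nr2f1 (0.36, adjusted p = 0.0555, limma) and Nr1i3 (0.25, adjusted p = 0.0711) also lay close. Their alternatives are not followed gene by gene here. Nr2c2 was called with quantile normalization (adjusted p = 0.0437), with dim probe sets left out (0.0248), in the fit of 1 mean per gene (0.038), without clone 8-3 or 8-4 (0.0444 and 0.038) and without KO/mock clone 8-4 replicate 1 (0.0417). Nr6a1 was called with quantile normalization (adjusted p = 0.0399), with dim probe sets left out (0.0295), in the fit of 1 mean per gene (0.0475), without clone 8-3 or 8-4 (0.0332 and 0.0389) and without KO/mock clone 8-3 replicate 1 (0.0484). Nr2c1 (TR2), the heterodimer partner of Nr2c2, averaged 7.06 ± 0.15 on the KO/ERRb-wt arrays, 7.09 ± 0.07 on the KO/mock arrays and 6.98 ± 0.15 on the WT/mock arrays (SD, n = 4 each), with differences of 0.11 for KO/mock minus WT/mock, -0.03 between KO/ERRb-wt and KO/mock and 0.08 between KO/ERRb-wt and WT/mock. Nr2f6, a COUP-TF relative, averaged 7.15 ± 0.13 on the KO/ERRb-wt arrays, 7.13 ± 0.07 on the KO/mock arrays and 6.93 ± 0.15 on the WT/mock arrays, with differences of 0.20, 0.02 and 0.23 in that order of comparisons; the last was called without clone 5-5 (adjusted p = 0.0426).

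Of the steroid receptors, Nr3c1 fell on the KO/mock arrays and Pgr on the KO/ERRb-wt arrays, both relative to WT/mock. Nr3c1, the glucocorticoid receptor gene, read 6.31, 6.17, 6.08 and 6.13 on the KO/ERRb-wt arrays, 6.14, 5.93, 6.17 and 6.08 on the KO/mock arrays and 6.34, 6.52, 6.40 and 6.32 on the WT/mock arrays. All 4 WT/mock arrays lay above the 8 others, the lowest by a narrow margin. Nr3c1 fell by 0.32 ± 0.08 (SE) on the KO/mock arrays against WT/mock (adjusted p = 0.041; adjusted p = 0.0592 with the replicate number as a block). The KO/ERRb-wt arrays differed from WT/mock by -0.22 ± 0.08 (adjusted p = 0.0741), which was called without KO/ERRb-wt clone 12-1 replicate 1 (adjusted p = 0.0402), with median centring (0.0458), with dim probe sets left out (0.0373) and in the fit of 1 mean per gene (0.0491), and from KO/mock by 0.09. The KO/mock call held only without WT/mock clone 5-5 replicate 2, KO/ERRb-wt clone 12-1 replicate 1 or KO/ERRb-wt clone 12-3 replicate 1. Without any of the other 9 arrays it ended, with adjusted p of 0.0502 to 0.117 and differences of -0.35 to -0.27. It also ended without clone 5-2, 5-5, 8-3 or 8-4 (adjusted p = 0.235, 0.0708, 0.147 and 0.127) and with only the 2 groups compared (0.0694).

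Pgr, the progesterone receptor gene, had a mean of only 4.68. It read 4.24, 4.37, 4.26 and 4.52 on the KO/ERRb-wt arrays, 4.64, 4.74, 4.60 and 4.44 on the KO/mock arrays and 5.47, 5.15, 4.74 and 4.97 on the WT/mock arrays. The KO/ERRb-wt arrays were all below the WT/mock arrays, and the lowest WT/mock array and the highest KO/mock array read the same to 2 decimals. Pgr fell by 0.74 ± 0.14 (SE) on the KO/ERRb-wt arrays against WT/mock (adjusted p = 0.0032), and the call held without any single array or clone. With the arrays of each clone averaged, the call ended (adjusted p = 0.0559). KO/mock minus WT/mock was -0.48 ± 0.14 (adjusted p = 0.0807), and without WT/mock clone 5-5 replicate 1 it was -0.59 and called (adjusted p = 0.0274), as it was without clone 5-5 (0.0105) and in the fit of 1 mean per gene (0.0426). KO/ERRb-wt differed from KO/mock by -0.26 (adjusted p = 0.336). The estrogen receptor genes Esr1 and Esr2 were not called.

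Partner and target genes of the receptors were read from 6 lists. Coregulators carry repression or activation for the receptors. Of 26 measured, 2 were called in KO/mock against WT/mock (1 higher, 1 lower), 2 in KO/ERRb-wt against KO/mock (0 higher, 2 lower) and 6 in KO/ERRb-wt against WT/mock (3 higher, 3 lower). In the same order 5.58%, 4.4% and 20.8% of all genes were called, and 10.8%, 8.3% and 37.8% of genes with a mean of 6 or more, which 24 of the 26 have. The median differences of the list were 0.03, 0.01 and -0.01. Gps2, a subunit of the NCoR corepressor complex, rose by 0.59 ± 0.09 (SE; adjusted p = 0.00113) on the KO/ERRb-wt arrays and by 0.43 ± 0.09 (adjusted p = 0.023) on the KO/mock arrays, both against WT/mock. Ncoa4, on chromosome 14, fell by 0.25 ± 0.06 on the KO/mock arrays against WT/mock. The CBP-binding protein gene Cited2 fell by 0.43 ± 0.07 on the KO/ERRb-wt arrays against KO/mock (adjusted p = 0.0126) and by 0.64 ± 0.07 against WT/mock. The corepressor gene Nrip1 fell by 0.32 ± 0.08 against KO/mock and the coactivator gene Ncoa6 by 0.32 ± 0.07 against WT/mock.

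Of 18 measured genes of retinoid supply and response, 1 was called in KO/mock against WT/mock, 1 in KO/ERRb-wt against KO/mock and 5 in KO/ERRb-wt against WT/mock, all of them higher. Over all genes 5.58%, 4.4% and 20.8% were called, and 10.8%, 8.3% and 37.8% of those with a mean of 6 or more, as 5 of the 18 had. The median differences were 0.01, 0.11 and 0.06. Crabp2, which carries retinoic acid to its nuclear receptors, was called in all 3 comparisons. It averaged 7.29 on the KO/ERRb-wt arrays, 6.54 on the KO/mock arrays and 5.88 on the WT/mock arrays. Its log2 difference was 0.66 ± 0.07 (SE; adjusted p = 0.000448) between KO/mock and WT/mock, 0.75 ± 0.07 (adjusted p = 0.000593) between KO/ERRb-wt and KO/mock, and 1.41 ± 0.07 (adjusted p = 1.46e-06) between KO/ERRb-wt and WT/mock. Aldh1a2, an enzyme that makes retinoic acid in embryos, rose by 0.67 ± 0.12 on the KO/ERRb-wt arrays against WT/mock. Its mean was 5.45, under the level of 6. The homeobox gene Cdx1, a retinoic acid target, rose by 0.61 ± 0.12 in the same comparison.

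Of 14 measured PPAR targets, several of which ERRs also bind, 2 were called in KO/mock against WT/mock (1 higher, 1 lower), 4 in KO/ERRb-wt against KO/mock (0 higher, 4 lower) and 7 in KO/ERRb-wt against WT/mock (2 higher, 5 lower). Over all genes 5.58%, 4.4% and 20.8% were called, and 10.8%, 8.3% and 37.8% of those with a mean of 6 or more, as 10 of the 14 had. The median differences were -0.06, -0.10 and -0.14. Cpt1a, which admits fatty acids to mitochondria, averaged 8.20 on the KO/ERRb-wt arrays, 8.73 on the KO/mock arrays and 9.48 on the WT/mock arrays, and it fell in all 3 comparisons. Angptl4, a lipase inhibitor gene, rose by 0.44 ± 0.09 (SE; adjusted p = 0.0233) on the KO/mock arrays against WT/mock. On the KO/ERRb-wt arrays, Plin2, which coats lipid droplets, fell by 0.65 ± 0.07 against KO/mock and by 0.70 ± 0.07 against WT/mock. Acadl, a fatty acid dehydrogenase gene, fell by 0.78 ± 0.09 and 0.90 ± 0.09 in the same comparisons.

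Of 14 clock partners, 3 were called in KO/mock against WT/mock (1 higher, 2 lower), 0 in KO/ERRb-wt against KO/mock (limma; 1 at an unadjusted p under 0.05) and 3 in KO/ERRb-wt against WT/mock (0 higher, 3 lower), beside 5.58%, 4.4% and 20.8% of all genes, of which 21.7% met the unadjusted threshold in the second. A mean of 6 or more was reached by 9 of the 14, and at that level 10.8%, 8.3% and 37.8% of genes were called. Arntl, which the REV-ERBs repress, rose by 0.36 ± 0.09 (SE; adjusted p = 0.0393) on the KO/mock arrays, where the repressor genes Cry1 and Bhlhe41 fell by 0.56 ± 0.09 and 0.52 ± 0.11. On the KO/ERRb-wt arrays against WT/mock, Bhlhe40, a further repressor gene, fell by 1.21 ± 0.19 (adjusted p = 0.00107). Cry1 fell there by 0.51 ± 0.09 and Bhlhe41 by 0.62 ± 0.11. Bhlhe41 had a mean of only 3.97, under the level of 6.

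Of 15 sterol receptor targets, 0 were called in KO/mock against WT/mock (limma; 3 at an unadjusted p under 0.05), 1 in KO/ERRb-wt against KO/mock (lower) and 5 in KO/ERRb-wt against WT/mock (3 higher, 2 lower), beside 5.58%, 4.4% and 20.8% of all genes, of which 20.3% met the unadjusted threshold in the first comparison. A mean of 6 or more was reached by 7 of the 15. The desaturase gene Scd1 fell by 0.32 ± 0.07 (SE) on the KO/ERRb-wt arrays against KO/mock and by 0.57 ± 0.07 against WT/mock, where the sterol exporter gene Abcg1 rose by 0.47 ± 0.08 and the fatty acid synthase gene Fasn by 0.40 ± 0.07. Of 12 glucocorticoid receptor targets, 0 were called in KO/mock against WT/mock (limma; 3 at an unadjusted p under 0.05), 1 in KO/ERRb-wt against KO/mock (higher) and 3 in KO/ERRb-wt against WT/mock (2 higher, 1 lower), beside the same shares of all genes; 9 of the 12 had a mean of 6 or more. The kinase gene Sgk1 rose by 0.48 ± 0.12 on the KO/ERRb-wt arrays against KO/mock and by 0.83 ± 0.12 against WT/mock, where the zinc finger gene Zbtb16 rose by 0.37 ± 0.10 and the metallothionein gene Mt1 fell by 0.19 ± 0.06.

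**Figure D5:**
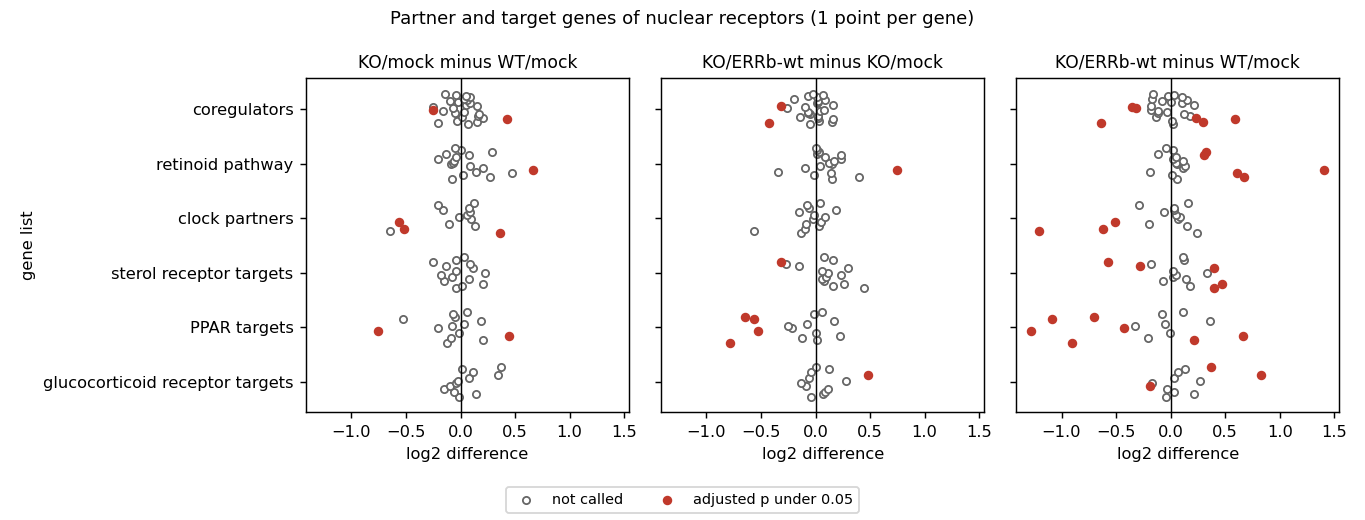
Log2 differences of the partner and target genes of nuclear receptors, 1 point per gene and 1 row per list, in the 3 comparisons; filled points were called. Crabp2 at 1.41 lies far right in the retinoid row of KO/ERRb-wt minus WT/mock, and Cpt1a at -1.28 far left in the PPAR row.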

How the data were processed

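Total RNA of each sample was labelled with a whole-transcript kit and hybridised to 1 Affymetrix mouse gene array, per the labels. The deposited values are log2 expression; the submitters' processing notes name RMA and Affymetrix Expression Console, without versions. RMA normalizes between arrays, which can hide a shift in most genes at once; array medians still differed slightly. The number of arrays limits the precision.

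Genes were named from the platform annotation, which can be old: 23521 of 41345 probe sets had exactly 1 symbol, 1814 several and 16010 none. Chromosomes, gene order and promoters came from RefSeq (GRCm38.p6).

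All 12 arrays entered a single fit with 3 group means (limma 3.58.1, statmod 1.5.0, R 4.3.3). Clone was a random block (correlation 0.0286), tests were two-sided, and p-values were adjusted by Benjamini-Hochberg over all probe sets. Alternatives changed the block, normalization, filter, probe set rule and the arrays or clones used.

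The members and all gene and marker lists were chosen with earlier results of these data known. Named were all measured members, and per list and comparison up to 3 called genes with the smallest adjusted p; marker genes, and TGACG and CACGTG, were picked after values were seen. Of 8 neuroectoderm, 8 trophoblast and 10 feeder fibroblast markers, 3 (2 higher, 1 lower), 2 (1 higher, 1 lower) and 1 (higher) were called in KO/ERRb-wt against WT/mock. Of all genes it was 20.8%. In KO/mock against WT/mock 1, 2 and 0 were called (limma), all lower, beside 5.58% of all genes. In KO/ERRb-wt against KO/mock 1 (higher), 0 and 0 were called, beside 4.4%.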

Additional observations from a re-analysis of the deposited data

Results flagged for a closer look

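In 6 of 117 sets of 4 arrays (39 genes in 3 groups), 1 array stood apart from the other 3 by more than Dixon's 95% critical share of the set's range; chance flags about 1 in 20 sets. Of these, 4 are in genes with a mean of 6 or more. In Thra, KO/ERRb-wt clone 12-1 replicate 2 read 5.60, below 5.86, 5.86 and 5.89. In Nr1d2, WT/mock clone 5-5 replicate 2 read 7.25, below 7.34, 7.34 and 7.35. In Nr4a1, KO/mock clone 8-4 replicate 2 read 8.34, below 8.51, 8.51 and 8.52. In Nr4a2, KO/mock clone 8-4 replicate 1 read 5.87, below 6.24, 6.28 and 6.29. The same array read 3.58 in Nr4a3, below 4.00, 4.01 and 4.02. In Rorb, KO/ERRb-wt clone 12-3 replicate 2 read 5.00, above 4.71, 4.72 and 4.73.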

How the results depend on the processing

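Single genes were followed through all alternatives for the 16 with a mean of 6 or more and for Pgr. Each check is 1 gene in 1 comparison under 1 alternative. The 10 called differences held in 205 checks and ended in 54. Differences of these genes that were not called stayed so in 1043 checks and became called in 21. No called difference changed sign. The other members under 6 are not in this tally, so calls they gained are not among the 21. With the 2 arrays of each clone averaged, 0 receptor genes were called in KO/mock against WT/mock, 0 in KO/ERRb-wt against KO/mock and 1 in KO/ERRb-wt against WT/mock (limma), beside 10, 0 and 2251 probe sets, where all 12 arrays gave 1602, 1329 and 6460; that fit has 6 values, and 6, 4 and 10 receptor genes met an unadjusted p under 0.05. In KO/mock against WT/mock, 1 receptor gene was called with only the 2 groups compared, and 0 without clone 5-2, 8-3 or 8-4 (4, 10 and 9 at an unadjusted p under 0.05), with 531 probe sets without clone 5-2 and 560 without clone 8-4. In KO/ERRb-wt against KO/mock, 0 were called with only the 2 groups compared (777 probe sets), 0 without clone 8-3 (145) and 0 without clone 12-3 (333), with 10, 5 and 6 at an unadjusted p under 0.05; without clone 12-1 there were 761 probe sets. In KO/ERRb-wt against WT/mock, 3 were called without clone 5-2 (3245 probe sets), 4 without clone 12-3 (3931), and 12 in the fit of 1 mean per gene. That fit also adjusted over 22180 features in place of 41345 and had a clone correlation of 0.0683; of the members only Nr3c2 has more than 1 probe set, so averaging itself left the values of the called genes as they were. Leaving out 1 array gave 0 to 2, 0 to 1 and 6 to 9 receptor genes in the 3 comparisons, and 888 to 1841, 544 to 1399 and 4822 to 6526 probe sets. A level of 7 left 10 receptor genes in place of 16. Beyond fewer arrays, the cause was not tested.

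Over all probe sets, the differences between replicates 1 and 2 correlated between clones at -0.0433 to 0.141. This gives little sign that the replicate numbers pair the samples. Such correlations cannot exclude a pairing that touches only some genes. With the replicate block, 1, 1 and 6 receptor genes and 1365, 973 and 6011 probe sets were called in the 3 comparisons.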
